A study of Mus musculus with 16 samples.

Results

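The genes described here are 9 that carry, activate or report thyroid hormone signalling in tissues: the receptors Thra and Thrb, the deiodinases Dio1 and Dio2, and the hormone-responsive genes Thrsp, Me1, Klf9, Hr and Gpd2. They were picked by symbol, for what is known of them, but with earlier results of these data known. All 9 were present in each of the 4 deposited expression tables, which together list 24934 symbols. The question put to them was whether tissues of mice given sunitinib show signs of hypothyroidism, which is known to occur in people treated with this drug. Thyroxine is converted in tissues to the active hormone triiodothyronine by deiodinases. Triiodothyronine then binds nuclear receptors that sit on target genes, as partners of retinoid X receptors, and turns repression into activation. In liver and fat the hormone is known for driving lipogenic and mitochondrial genes, and in brown fat the local deiodinase Dio2 takes part in thermogenesis.

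The mice were C57BL/6, aged 24 weeks, and received sunitinib (Sutent), a drug that blocks receptor tyrosine kinases of growth factors, or vehicle. Per the labels 8 mice were used, 4 with sunitinib and 4 with vehicle, and total RNA was sequenced from liver, brown fat and the epididymal and inguinal depots of white fat, with 2 libraries per treatment and tissue and 16 in all. Dose, duration and which mouse gave which library are not stated in the labels, so each p-value measures only the spread between libraries. Values are the authors' regularized log2 expression (rlog), which shrinks genes with few reads towards their mean and is scaled within each tissue's table. No thyroid hormone or thyrotropin level was analysed here.

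The libraries carried the markers of their tissues. Some differed in other tissue that came with them, or in markers of cell types of the tissue itself. The hepatocyte list (Alb, Apoa1, Ttr, Serpina1a, Fgb) had a summed level of 20.6 and 20.6 in sunitinib livers and 20.7 and 20.7 in vehicle livers, on the log2 scale of summed expression. In inguinal fat the 5 skeletal muscle markers summed to 15.7 and 12.6 in sunitinib libraries and 17.5 and 15.99 in vehicle libraries, all 5 with lower means under sunitinib, and the 5 lymphocyte markers to 9.24 and 12.5 in sunitinib libraries and 7.47 and 8.27 in vehicle libraries. In brown fat the muscle markers varied within both groups, at 13.0 and 12.3 in sunitinib libraries and 10.8 and 14.8 in vehicle libraries. The brown adipocyte markers there, Dio2 among them, summed to 17.6 and 17.5 in sunitinib libraries and 17.3 and 17.2 in vehicle libraries, with 4 of 5 higher. Endothelial markers in brown fat were higher, at 13.2 and 13.2 in sunitinib libraries and 12.97 and 12.6 in vehicle libraries, with 5 of 5 higher, and macrophage markers lower, with 3 of 3 lower and a median difference of −0.39. Endothelial markers were lower in epididymal fat (12.01 and 12.1 in sunitinib libraries, 12.3 and 12.8 in vehicle libraries) and in inguinal fat (12.6 and 12.6 against 12.97 and 12.9 in vehicle libraries), with 5 of 5 lower in both. The adipocyte markers (Adipoq, Plin1, Fabp4, Cidec, Lep) were lower in epididymal fat, with 4 of 5 lower. They summed there to 18.75 and 18.69 in sunitinib libraries and 19.12 and 18.90 in vehicle libraries. In inguinal fat they summed to 18.82 and 18.42 against 18.84 and 19.08 in vehicle libraries, with 5 of 5 lower. In brown fat 3 of 5 were lower, and in liver 5 of 5 were higher. The part of these markers in the differences of the 9 genes was not tested. In epididymal fat the epithelial markers were higher under sunitinib, at 13.1 and 10.99 against 9.28 and 9.95 in vehicle libraries, with Crisp1 at 12.7 in the first sunitinib library and between 5.98 and 6.21 in the other 3. The macrophage markers there were lower, at 12.04 and 11.98 in sunitinib libraries and 13.2 and 13.3 in vehicle libraries. In such bulk tissue, fewer cells of a type and less RNA per cell cannot be told apart.

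RefSeq promoter windows (GRCm38.p6, 250 bases before to 50 after a start site) were at hand for 7 of the 9 genes, in 10 windows, and not for Thra and Hr. The windows of Thrsp, Me1 and Gpd2 are shown because these 3 genes carried the tested differences below, and that of Thrb because it held the receptor half-site. Thrsp lies at chr7:97417501-97417800 on the minus strand, Me1 (the first of 2 windows) at chr9:86695865-86696164 on the minus strand, Gpd2 (the first of 2) at chr2:57237428-57237727 on the plus strand, and Thrb (the first of 2) at chr14:17660710-17661009 on the plus strand. Each is written 5′ to 3′ on the strand of its gene, and capitals mark a match to the half-site AGGTCA.
Thrsp promoter: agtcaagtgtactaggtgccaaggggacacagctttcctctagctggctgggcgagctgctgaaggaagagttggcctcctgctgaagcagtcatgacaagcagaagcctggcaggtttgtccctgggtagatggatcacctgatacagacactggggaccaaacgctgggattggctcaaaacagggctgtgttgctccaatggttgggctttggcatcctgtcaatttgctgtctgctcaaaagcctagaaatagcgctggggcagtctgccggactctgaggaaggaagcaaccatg
Me1 promoter: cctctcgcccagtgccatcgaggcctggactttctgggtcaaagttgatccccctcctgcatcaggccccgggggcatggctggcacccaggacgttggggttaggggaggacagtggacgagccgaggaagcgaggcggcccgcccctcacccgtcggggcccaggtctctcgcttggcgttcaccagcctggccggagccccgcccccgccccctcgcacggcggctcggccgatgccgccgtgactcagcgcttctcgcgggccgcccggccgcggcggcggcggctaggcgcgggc
Gpd2 promoter: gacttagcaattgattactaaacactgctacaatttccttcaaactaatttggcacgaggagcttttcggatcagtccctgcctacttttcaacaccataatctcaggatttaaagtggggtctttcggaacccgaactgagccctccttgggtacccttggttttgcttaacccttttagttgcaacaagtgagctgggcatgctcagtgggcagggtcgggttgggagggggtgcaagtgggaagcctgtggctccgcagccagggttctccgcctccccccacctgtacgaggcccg
Thrb promoter: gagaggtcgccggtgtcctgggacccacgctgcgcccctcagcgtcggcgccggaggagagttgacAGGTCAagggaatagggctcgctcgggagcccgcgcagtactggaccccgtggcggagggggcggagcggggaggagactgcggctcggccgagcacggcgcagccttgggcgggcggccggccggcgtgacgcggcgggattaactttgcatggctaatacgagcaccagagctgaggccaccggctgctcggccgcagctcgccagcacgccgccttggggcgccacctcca
The half-site AGGTCA, searched on both strands, was found in 1 of the 10 windows, at −184 from the Thrb start, and in 16.3% of 32851 promoter windows of the same length in the genome. The direct repeat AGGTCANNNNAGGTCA, the classical spacing for a thyroid hormone receptor with its retinoid X partner, was in 0 of the 10 windows and in 0.0152% of all windows. The window lengths cover only the immediate surroundings of a start site, and a missing match says only that these letters are not there.

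**Figure D1:**
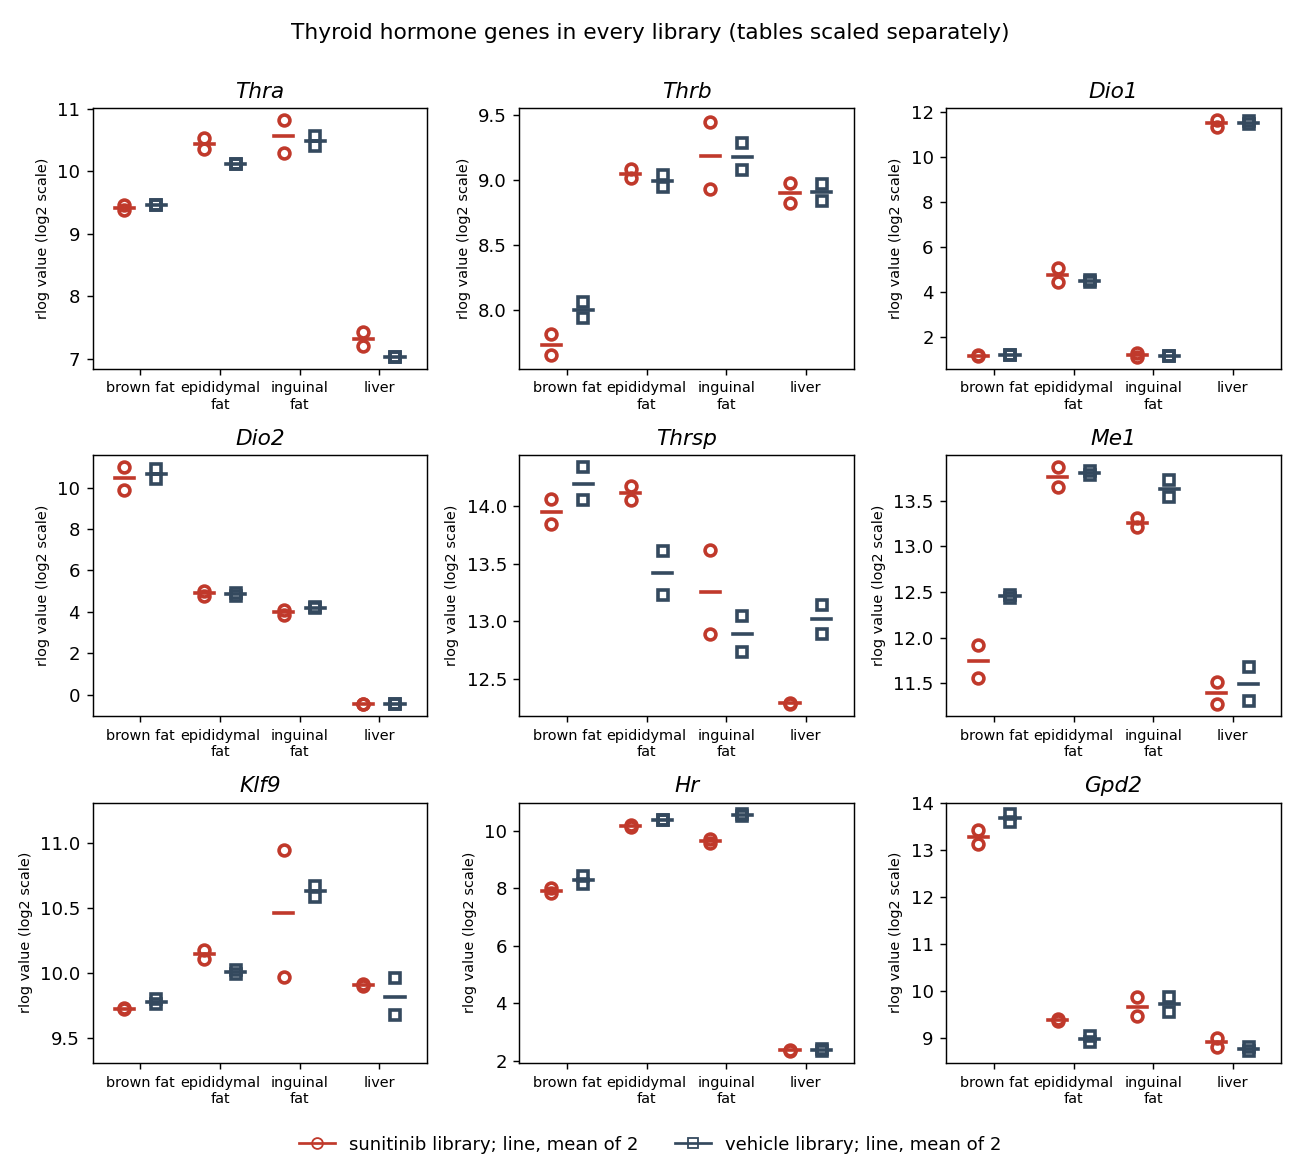
Regularized log2 expression (rlog, y axis, log2 scale, with an own range in each panel) of the 9 genes in 4 tissues (x axis). Red circles are sunitinib libraries and dark squares vehicle libraries, with a line at the mean of 2, and tissues were scaled separately. Thrsp in liver sits at 12.29 and 12.28 in sunitinib libraries, below 12.89 and 13.14 in vehicle libraries, and above its vehicle libraries in epididymal fat.

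The tissues differed in which of these genes they expressed. Dio1, the deiodinase of liver and kidney that both activates and clears hormone, averaged 11.49 ± 0.13 in liver (SD, n = 4 libraries), 4.61 ± 0.29 in epididymal fat, 1.19 ± 0.02 in brown fat and 1.17 ± 0.08 in inguinal fat. Its last pair of values overlapped. Dio2, the activating deiodinase of brown fat, pituitary and brain, averaged 10.54 ± 0.49 in brown fat, 4.86 ± 0.12 in epididymal fat, 4.09 ± 0.18 in inguinal fat and −0.45 ± 0.005 in liver, with no overlap between neighbours in that order. The deiodinases thus split between liver and brown fat, and each was below the minimum mean of 3 used for testing in a tissue where the other was high. Gpd2, the mitochondrial glycerol-3-phosphate dehydrogenase, was highest in brown fat at 13.5 ± 0.27, followed by inguinal fat at 9.69 ± 0.21, epididymal fat at 9.17 ± 0.24 and liver at 8.83 ± 0.12, where only the last pair overlapped.

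Among the receptors, Thra was higher in inguinal and epididymal fat (10.52 ± 0.23 and 10.3 ± 0.20, overlapping) than in brown fat (9.44 ± 0.04) and liver (7.17 ± 0.19). Thrb, the main receptor of liver, ran from 9.18 ± 0.23 in inguinal fat through 9.02 ± 0.06 in epididymal fat to 8.90 ± 0.08 in liver, each overlapping the next, and was lower in brown fat at 7.87 ± 0.18. The hairless gene Hr was near its floor in liver at 2.37 ± 0.04 and lay between 8.10 in brown fat and 10.3 in epididymal fat. Thrsp overlapped between every pair of neighbouring tissues, between a mean of 14.1 in brown fat and 12.7 in liver. Me1 and Klf9 were highest in the 2 white depots, where their values overlapped, and lower in brown fat and liver, where they overlapped too. These orders are across separately scaled tables and were not tested.

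Of the 36 combinations of gene and tissue, 32 had a mean rlog of at least 3 and were tested with limma over all genes of the table, and 1 passed a Benjamini-Hochberg adjusted p of 0.05. Thrsp in liver was that gene. The members of each tissue are counted here beside all genes of the same table.

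In liver 1 of 7 tested members was called, with sunitinib lower, where 0.194% of all genes were called and 0.0726% with sunitinib lower. At an unadjusted p under 0.05 there was 1 lower, where 5.17% of all genes were, and 1 higher, where 3.47% were, and 8.64% in either direction. The sunitinib pair lay below the vehicle pair for 1 member (19.2% of all genes) and above it for 2 (18.3%), or 37.4% of all genes in either direction. The median difference, sunitinib minus vehicle, was −0.01 with 4 of 7 negative, beside 0.00 and 48.6% negative for all genes.

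In brown fat 0 of 8 tested members were called, as were 0% of all genes. Before adjustment, 4 had p under 0.05, all lower, where 6.98% of all genes were lower and 16.1% passed in either direction. The sunitinib pair lay below for 5 members (24% of all genes) and above for 0 (26.2%), with 50.2% of all genes in either direction. The median was −0.26 with 8 of 8 negative, beside −0.00 and 51.6% negative for all genes.

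In epididymal fat 0 of 9 members were called, where 2.34% of all genes were called and 2.06% with sunitinib lower. Before adjustment, 3 had p under 0.05 and were higher (8.14% of all genes), and 1 was lower (11.9%), with 20.1% in either direction. The sunitinib pair lay above for 4 members (27% of all genes) and below for 1 (26.8%), with 53.7% in either direction. The median was 0.13 with 2 of 9 negative, beside 0.01 and 46.7% negative for all genes.

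In inguinal fat 0 of 8 tested members were called, as were 0% of all genes. At an unadjusted p under 0.05 there was 1 lower, where 8.8% of all genes were, and 0 higher, where 3.88% were, and 12.7% in either direction. The sunitinib pair lay below for 3 members (26.4% of all genes) and above for 0 (24%), with 50.4% in either direction. The median was −0.11 with 5 of 8 negative, beside 0.01 and 48.6% negative for all genes.

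**Figure D2:**
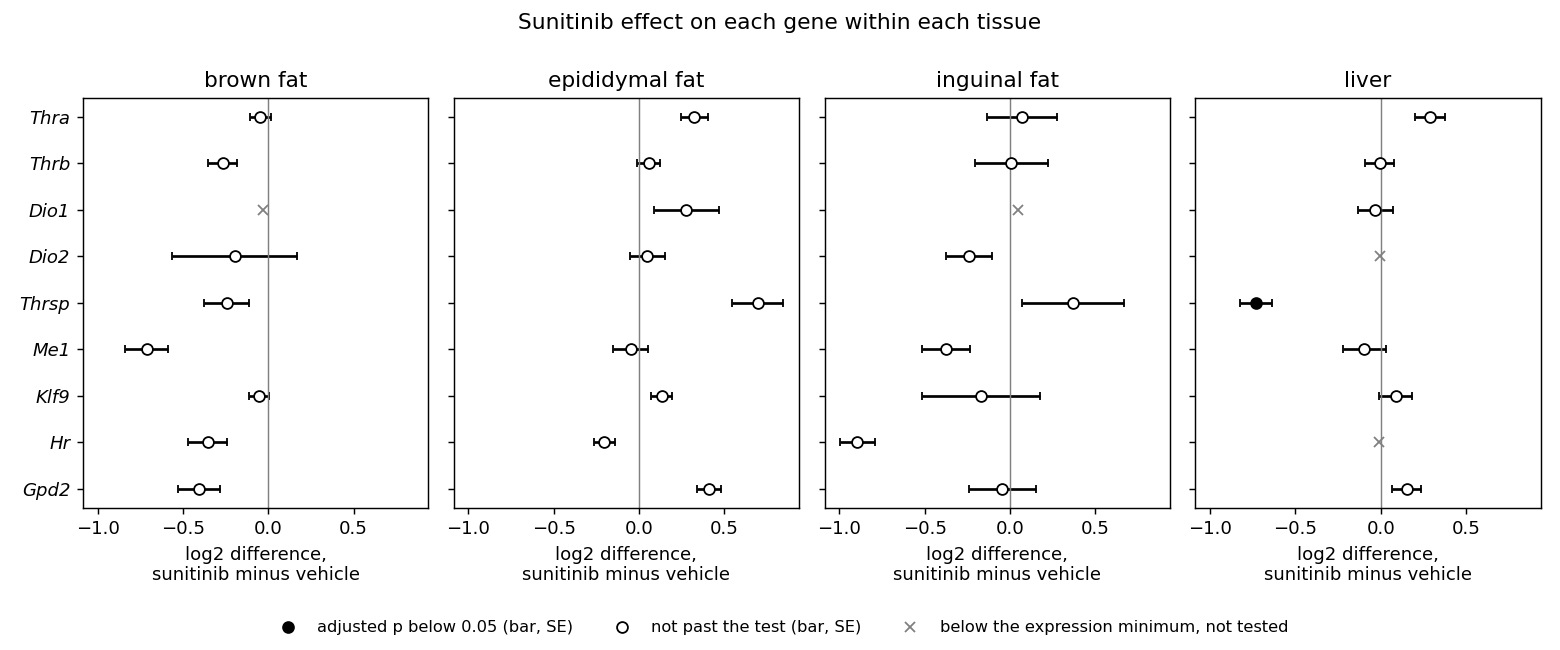
Log2 difference of rlog, sunitinib minus vehicle (x axis), with SE from limma for the 9 genes (y axis) in each tissue. The filled point, adjusted p below 0.05, is Thrsp in liver at −0.73, and the 8 tested genes of brown fat all lie left of 0.

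The receptors were close to their vehicle levels in most tissues, and no receptor difference passed the test. Thra, which encodes the receptor form that dominates in fat, heart and brain, had 10.53 and 10.35 in sunitinib libraries of epididymal fat, against 10.11 and 10.12 in vehicle libraries. Both sunitinib libraries were above both vehicle libraries, with a difference of 0.32 ± 0.08 (SE, n = 2 each, limma adjusted p = 0.122). In liver Thra had 7.43 and 7.20 with sunitinib and 7.03 and 7.03 with vehicle, again without overlap, with a difference of 0.29 ± 0.09 (adjusted p = 0.346). In brown fat (−0.05 ± 0.06) and inguinal fat (0.07 ± 0.21) its groups overlapped.

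The end of Thra shares exon bases with Nr1d1 on the other strand, the clock gene for REV-ERB alpha, so reads of the pair cannot be told apart if counting ignored strand, which is not given in the sources used here. Nr1d1 differed by 0.32 ± 0.13 in liver, of a size with Thra there, but by 0.03 ± 0.10 in epididymal fat, where Thra differed by 0.32. Dio2, Me1 and Gpd2 also share exon bases with an opposite-strand noncoding transcript in the GENCODE annotation, and their values carry the same uncertainty.

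Thrb had 7.65 and 7.81 in sunitinib libraries of brown fat and 8.06 and 7.94 in vehicle libraries. The sunitinib pair was the lower one, with a difference of −0.27 ± 0.09 (adjusted p = 0.259). In liver, where Thrb is the receptor through which the hormone acts on cholesterol and bile acid genes, it had 8.82 and 8.97 with sunitinib against 8.84 and 8.97 with vehicle, a difference of −0.01 ± 0.09. In epididymal fat it differed by 0.06 ± 0.07 and in inguinal fat by 0.01 ± 0.21, with overlap in both.

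The deiodinases gave no difference that passed. Dio1 is itself induced by triiodothyronine in liver and is used as a marker of hormone action there. It had 11.33 and 11.62 in sunitinib livers and 11.44 and 11.57 in vehicle livers, so the vehicle values lay inside the sunitinib range, with a difference of −0.03 ± 0.10 (adjusted p = 0.978). In epididymal fat Dio1 had 4.46 and 5.04 with sunitinib and 4.43 and 4.51 with vehicle, with overlap and a difference of 0.28 ± 0.19 (adjusted p = 0.462). The second of these sunitinib libraries stood above the other 3.

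Dio2 activity is known to rise when thyroxine is low, largely through slower breakdown of the enzyme protein. In brown fat Dio2 had 10.98 and 9.91 with sunitinib and 10.88 and 10.41 with vehicle. The sunitinib pair spanned the vehicle pair, and the difference was −0.20 ± 0.37 (adjusted p = 0.803), the widest error of the members in that tissue. In inguinal fat Dio2 had 4.10 and 3.84 with sunitinib and 4.23 and 4.19 with vehicle, the sunitinib pair below, with a difference of −0.24 ± 0.14 (adjusted p = 0.492). In epididymal fat it differed by 0.05 ± 0.10.

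Thrsp, also known as Spot 14, is a lipogenic regulator that thyroid hormone and dietary carbohydrate both induce in liver. It had 12.29 and 12.28 in sunitinib livers and 12.89 and 13.14 in vehicle livers. Both sunitinib livers were below both vehicle livers, and Thrsp fell by 0.73 ± 0.09 on the log2 scale, to a fold of 0.602 (limma, adjusted p = 0.0178, rank 11 by p of 12394 genes). It stayed past the threshold without any 1 of the 4 livers, with differences between −0.86 and −0.60. It did not pass in a fit with no intensity trend (adjusted p = 0.0931) or in 1 fit over the 4 tissues with a shared spread (adjusted p = 0.9999), although the difference was the same. Of all genes in liver, 0.0242% and 0% passed in those fits, against 0.194% in the main fit.

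In epididymal fat Thrsp lay the other way. It had 14.18 and 14.05 in sunitinib libraries and 13.61 and 13.23 in vehicle libraries, with both sunitinib values above both vehicle values. The difference was 0.69 ± 0.15 and did not pass (adjusted p = 0.0938). In inguinal fat it had 13.62 and 12.88 with sunitinib against 12.73 and 13.04 with vehicle (0.37 ± 0.30), and in brown fat 13.85 and 14.06 against 14.06 and 14.34 (−0.24 ± 0.13), with overlap in both.

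Me1 encodes cytosolic malic enzyme, which supplies NADPH for fatty acid synthesis and whose activity in rat liver is a long-used readout of thyroid state. In brown fat it had 11.56 and 11.92 with sunitinib and 12.47 and 12.44 with vehicle. The sunitinib pair was lower by more than its own spread, with a difference of −0.71 ± 0.13 that did not pass over the table (limma adjusted p = 0.228), where no gene of brown fat passed. In inguinal fat Me1 had 13.31 and 13.21 with sunitinib and 13.54 and 13.73 with vehicle, again with the sunitinib pair lower and a difference of −0.38 ± 0.14 (adjusted p = 0.394). In liver, the tissue of the classical assay, it had 11.28 and 11.52 with sunitinib and 11.31 and 11.68 with vehicle, an overlap and a difference of −0.10 ± 0.13. In epididymal fat the difference was −0.05 ± 0.10.

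Hr encodes a nuclear corepressor whose gene is induced by thyroid hormone in brain. It had its largest separation in inguinal fat, at 9.57 and 9.71 with sunitinib and 10.56 and 10.50 with vehicle. The difference of −0.89 ± 0.10 ranked 31 of 14916 genes by p and did not pass (adjusted p = 0.285), in a table where no gene passed. This is also the tissue where muscle, adipocyte and endothelial markers were lower and lymphocyte markers higher in sunitinib libraries. Their part in the difference was not tested. Hr was also lower in brown fat, at 7.84 and 8.00 against 8.14 and 8.41 with vehicle (−0.36 ± 0.11, adjusted p = 0.257), and in epididymal fat, at 10.21 and 10.13 against 10.37 and 10.38 with vehicle (−0.20 ± 0.06, adjusted p = 0.172). In all 3 fat depots the sunitinib pair was thus below the vehicle pair, without a pass in any. Non-overlap with sunitinib lower was seen for 24% of all genes in brown fat, 26.8% in epididymal fat and 26.4% in inguinal fat.

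Gpd2 feeds electrons from glycerol-3-phosphate into the respiratory chain and is raised by thyroid hormone in rodent liver and brown fat. In brown fat it had 13.13 and 13.44 with sunitinib and 13.77 and 13.61 with vehicle, the sunitinib pair below and a difference of −0.41 ± 0.13 (adjusted p = 0.252). In epididymal fat it had 9.40 and 9.36 with sunitinib and 9.03 and 8.90 with vehicle, the sunitinib pair above and a difference of 0.41 ± 0.07 (adjusted p = 0.0623). In liver it had 8.81 and 8.998 with sunitinib and 8.71 and 8.79 with vehicle (0.15 ± 0.09, adjusted p = 0.700). In inguinal fat the groups overlapped (−0.05 ± 0.20).

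Klf9, a zinc-finger transcription factor that thyroid hormone and glucocorticoids both induce, was nearly level in liver, at 9.90 and 9.91 with sunitinib and 9.67 and 9.96 with vehicle, a difference of 0.09 ± 0.10. In epididymal fat it had 10.18 and 10.10 with sunitinib and 9.99 and 10.02 with vehicle, without overlap (0.13 ± 0.06, adjusted p = 0.310). In brown fat it differed by −0.05 ± 0.06, again without overlap. In inguinal fat the sunitinib libraries stood at 10.94 and 9.97, on either side of 10.67 and 10.58 in vehicle libraries, and the difference was −0.17 ± 0.35.

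Whether the drug effect differed between tissues was tested as an interaction for each of 6 tissue pairs, with adjustment over all genes tested in both tables. Of 43 tests on members, 2 passed. The Thrsp effect in liver minus that in epididymal fat was −1.43 ± 0.19 (−0.73 and 0.69, limma adjusted p = 0.00548), and 3.95% of all genes passed that contrast. The Gpd2 effect in brown fat minus that in epididymal fat was −0.82 ± 0.15 (−0.41 and 0.41, adjusted p = 0.0333), where 3.64% of all genes passed. The Thrsp result held without any 1 of the 8 libraries, whereas the Gpd2 result was lost, at adjusted p between 0.0616 and 0.113, without the first sunitinib library of brown fat or any 1 of the 4 libraries of epididymal fat, and at 0.0505 with no minimum on expression.

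The other 4 pairs gave none, with 0% called in liver minus brown fat, 0.043% in liver minus inguinal fat, 0.0314% in brown minus inguinal fat and 0% in epididymal minus inguinal fat. At an unadjusted p under 0.05 these pairs held 4, 1, 1 and 1 members, of 6, 6, 8 and 8 tested. The shares of all genes at that cut were 14.4%, 13.7%, 13.6% and 10.1%. Thrsp in liver minus inguinal fat was −1.1 ± 0.34 (adjusted p = 0.262), and passed without the first or without the second sunitinib library of inguinal fat, at −0.73 (adjusted p = 0.0260) and −1.47 (adjusted p = 0.00554), settings in which 26.2% and 7.36% of all genes passed. In brown minus epididymal fat, 6 of 8 members had an unadjusted p under 0.05, where 22% of all genes did. All comparisons with epididymal fat share its 4 libraries. The epithelial, macrophage, endothelial and adipocyte markers differed between its groups, and their part in the tissue differences was not tested.

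Averaged over the 4 tissues in 1 fit of 16 libraries, Me1 was the member that passed among the 6 tested in every table. Me1 fell by 0.31 ± 0.07 (limma adjusted p = 0.0282), negative in 4 of 4 tissues, where 8.86% of all genes passed and 5.89% did so with sunitinib lower. The call was lost with quantile scaling (−0.23, adjusted p = 0.0682) and without any 1 of 9 libraries, at adjusted p between 0.0555 and 0.0800. Those were the first sunitinib and both vehicle libraries of brown fat, the first sunitinib and both vehicle libraries of epididymal fat, the second vehicle library of inguinal fat, and sunitinib 3 and vehicle 2 of liver. Unadjusted p-values under 0.05 were those of 2 members, Me1 and Thra, where 27.3% of all genes were. Thra averaged 0.16 ± 0.07 (adjusted p = 0.170), and passed without the second sunitinib library of inguinal fat (0.22, adjusted p = 0.00510), where 20.7% of all genes did. Without the first, Klf9 passed (−0.12, adjusted p = 0.0452), where 31.6% of all genes did. Thrb (−0.05 ± 0.07), Thrsp (0.02 ± 0.11), Gpd2 (0.03 ± 0.07) and Klf9 (−0.00 ± 0.11) averaged near 0. Libraries of different tissues may come from 1 mouse, so these p-values may be too small.

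**Figure D3:**
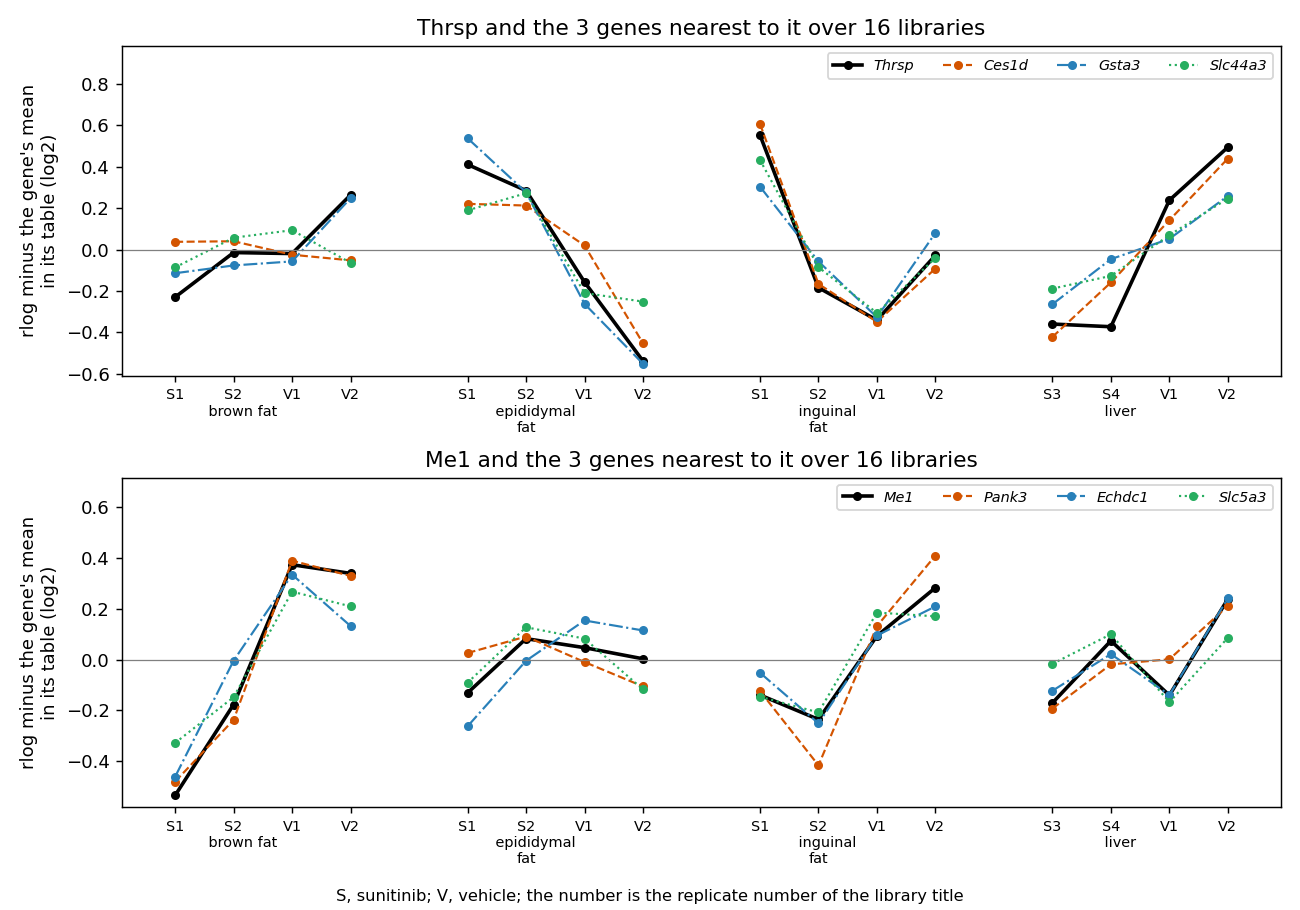
Rlog minus the gene's mean in its table (y axis, log2) of Thrsp (upper panel) and Me1 (lower panel) with the 3 genes nearest to each over 16 libraries (x axis, sunitinib libraries S left of vehicle libraries V in each tissue). Thrsp and its neighbours sit above 0 in sunitinib libraries of epididymal fat and below 0 in those of liver, and Me1 and its neighbours lie lowest in the first sunitinib library of brown fat.

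Among the 6 members tested in every table, Thrsp and Me1 had the largest mean size of difference over the tissues, so the genes most like each were listed by the root mean square distance over 16 libraries, each table centred on its gene mean, among 10026 genes, which are those tested in every table without the members and predicted or clone names. The nearest to Thrsp were Ces1d at 0.142, Gsta3 at 0.146 and Slc44a3 at 0.174, where the values of Thrsp itself had a root mean square of 0.327. Their sunitinib differences in liver were −0.58, −0.31 and −0.32, and in epididymal fat 0.43, 0.81 and 0.46, in the same order of genes. The nearest to Me1 were Pank3 at 0.0891, Echdc1 at 0.0958 and Slc5a3 at 0.100, where Me1 had 0.233. Their differences in brown fat were −0.72, −0.47 and −0.48. In epididymal fat they were 0.12, −0.27 and 0.04, in inguinal fat −0.54, −0.30 and −0.35, and in liver −0.21, −0.10 and 0.08. In brown fat Ces1d, Gsta3 and Slc44a3 differed by 0.08, −0.19 and −0.03. All these genes were picked by the same values, so their likeness to Thrsp or Me1 follows from the choice. Distances rest on libraries that share tables and groups, and are a description.

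**Figure D4:**
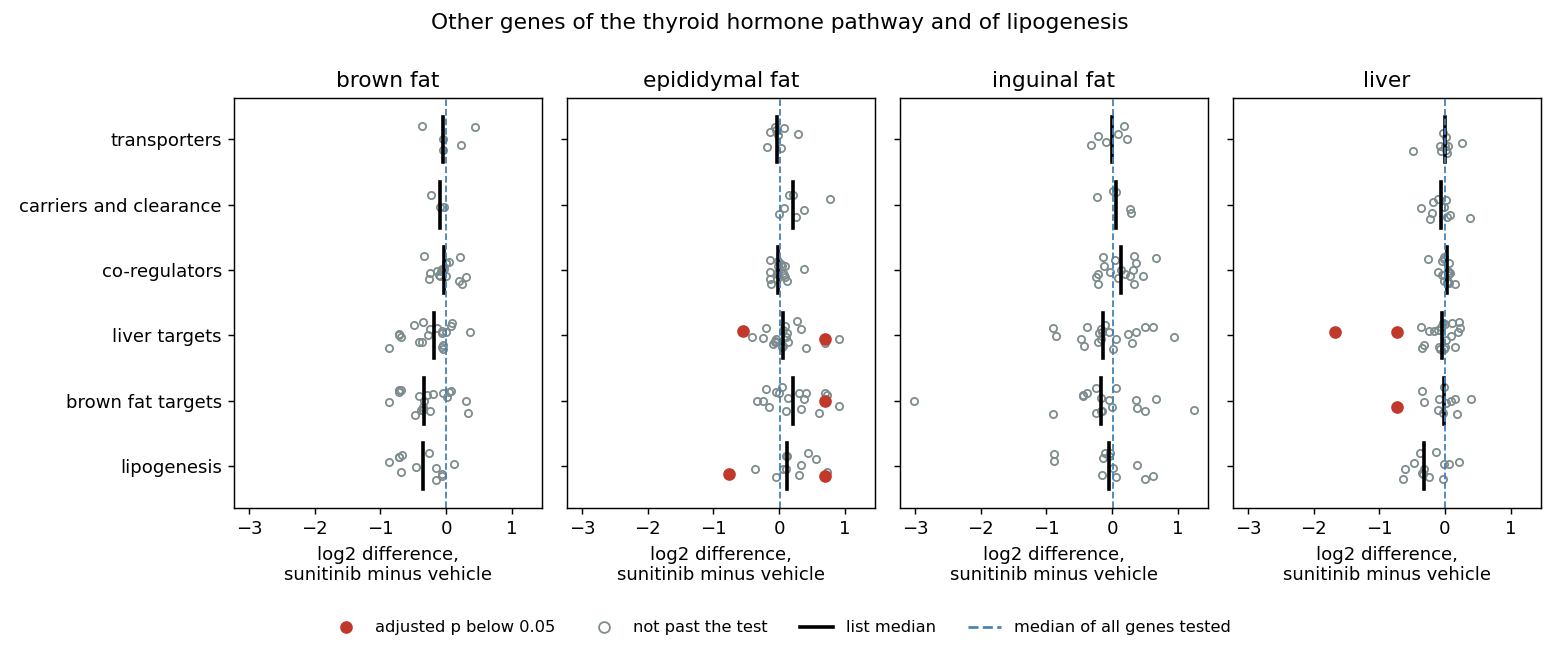
Log2 difference of rlog, sunitinib minus vehicle (x axis), for each tested gene of 6 lists (y axis) in 4 tissues, with the list median as a black bar and the median of all genes as a dashed line. The called genes, in red, are Cyp7a1 and Thrsp in liver and, in epididymal fat, Acaca and Insig1 among others, and a gene that is on several lists is drawn in each.

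The other genes of the pathway were read from lists of transporters, carriers and clearing enzymes, co-regulators, liver targets and brown fat targets. Each list was counted as genes called and as a median, beside the shares and medians of all genes above. Of 23 liver targets, 7 are among the 9 genes. In liver 2 of 22 tested fell and none rose. They were Thrsp and Cyp7a1, which catalyses the committed step from cholesterol to bile acids, at 7.81 and 7.90 with sunitinib against 9.34 and 9.71 with vehicle (−1.67 ± 0.11, adjusted p = 0.000797). The median was −0.04, with 15 of 22 negative.

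In epididymal fat 1 of 22 liver targets rose and 1 fell past the threshold. Unadjusted, 4 were higher and 4 lower at p under 0.05. Acaca, acetyl-CoA carboxylase 1 of fatty acid synthesis, had 13.15 and 13.22 with sunitinib and 12.56 and 12.41 with vehicle (0.70 ± 0.08, adjusted p = 0.0340). The list median was 0.06. In brown fat 17 of 20 were negative, with a median of −0.19 and none called. The smallest p-values there were those of Acly, ATP citrate lyase (−0.87 ± 0.14, adjusted p = 0.228), and Me1. In inguinal fat the median was −0.13 with none called, and the smallest p-values were those of Hr and of Scarb1, the high-density lipoprotein receptor (−0.43 ± 0.10, adjusted p = 0.331). At an unadjusted p under 0.05 the list held 10 in brown fat and 5 in inguinal fat, of 20 tested in each.

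Of 19 brown fat targets, 6 are among the 9 genes. In brown fat 14 of 19 were negative, with a median of −0.34 and none called. Unadjusted, 9 were lower and 1 higher at p under 0.05. Ucp1, the uncoupling protein of thermogenesis, differed by 0.30 ± 0.13 (adjusted p = 0.324), and Ppargc1a, the coactivator of mitochondrial biogenesis, by −0.34 ± 0.06 (adjusted p = 0.228). Fasn, fatty acid synthase, differed by −0.72 ± 0.24 and Acaca by −0.69 ± 0.20, with Me1, Acly and Gpd2 at the values above. In epididymal fat the median was 0.22, with Acaca called. In inguinal fat it was −0.16, with none called and 3 of 18 tested at an unadjusted p under 0.05. Adrb3, the fat-cell adrenergic receptor, had 13.34 and 12.37 with sunitinib and 11.76 and 11.47 with vehicle in inguinal fat (1.24 ± 0.36, adjusted p = 0.354). Atp2a1, the calcium pump of fast muscle, differed there by −3.01 ± 1.496 beside the lower muscle markers. In liver the median was −0.02, with Thrsp called.

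Transporters gave no call in any tissue, with medians of −0.05, −0.03, −0.00 and 0.00 in brown, epididymal and inguinal fat and liver. The sign of the inguinal and liver medians changes with scaling, and that of brown fat with a minimum mean of 5 (0.087). Genes with an unadjusted p under 0.05 numbered 3, 0, 0 and 2, of 5, 8, 6 and 10 tested. The smallest p-values were those of Slc16a10 (−0.36 ± 0.09) and Slc7a8 (0.44 ± 0.13) in brown fat, and of Slco1a4 (−0.49 ± 0.14) and Slco1a1 (0.26 ± 0.08), organic anion transporters, in liver. In white fat they were Slc7a8 (−0.18 ± 0.10) in epididymal fat, and Slc7a8 (−0.33 ± 0.12) and Slc16a10 (−0.21 ± 0.19) in inguinal fat. Slc16a10 is the transporter MCT10.

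Carriers and clearing enzymes gave no call either, with 3, 7, 5 and 10 genes tested in the same order of tissues. Their medians were −0.10, 0.22, 0.06 and −0.06, and 0, 1, 1 and 3 genes had an unadjusted p under 0.05. In liver Serpina7, thyroxine-binding globulin, had 10.83 and 10.86 with sunitinib and 10.41 and 10.51 with vehicle. The sunitinib pair was above, with a difference of 0.38 ± 0.07 (adjusted p = 0.117). Sult1a1, a phenol sulfotransferase, had 12.54 and 12.61 with sunitinib and 12.94 and 12.92 with vehicle, the sunitinib pair below (−0.36 ± 0.07, adjusted p = 0.127). In the fat depots the smallest p-values belonged to Alb (−0.23 ± 0.14) and Ttr (−0.10 ± 0.15), plasma carriers, in brown fat, to Crym (0.15 ± 0.05), the cytosolic hormone-binding crystallin, and Sult1d1 (0.38 ± 0.17) in epididymal fat, and to Alb (0.29 ± 0.10) and Ugt2b1 (−0.23 ± 0.11) in inguinal fat.

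Of 17 co-regulators and partners, none passed in a tissue, with medians of −0.03, −0.01, 0.14 and 0.03 and 7, 1, 3 and 1 genes at an unadjusted p under 0.05. The median of epididymal fat changes sign with quantile scaling. The coactivator Ncoa3 had 8.66 and 8.62 with sunitinib against 8.37 and 8.29 with vehicle in brown fat (0.31 ± 0.06, adjusted p = 0.228), and differed by 0.67 ± 0.18 in inguinal fat beside Crebbp at 0.47 ± 0.13. Ppargc1a differed by 0.38 ± 0.14 and Nr1h3, a liver X receptor, by −0.14 ± 0.07 in epididymal fat, and Rxrg, a retinoid X receptor, by −0.26 ± 0.09 in liver.

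Several of these targets answer to other regulators too, and 3 lists of such genes were counted alongside. The lipogenic list shares 4 genes with the liver targets and 3 with the brown fat targets, so their medians rest partly on the same genes. Pck1 is on the liver target and glucocorticoid lists, and Per1 on the clock and glucocorticoid lists. Of 14 lipogenic genes, 11 of 13 were negative in liver with a median of −0.31, and 11 of 12 in brown fat with a median of −0.36, both with none called and with 8 and 6 genes at an unadjusted p under 0.05. In liver Srebf1, the sterol-regulated transcription factor of lipogenesis, differed by −0.39 ± 0.09 (adjusted p = 0.162) and Scd1, stearoyl-CoA desaturase, by −0.61 ± 0.14 (adjusted p = 0.184). In brown fat Acly and Pnpla3 (−0.67 ± 0.12, adjusted p = 0.228) had the smallest p-values. In epididymal fat 10 of 13 were positive with a median of 0.12, Acaca rose, and Insig1, which holds back the processing of sterol-regulated transcription factors, fell by 0.76 ± 0.08 (adjusted p = 0.0268). In inguinal fat the median was −0.04, with a sign that changes under quantile scaling, and Insig1 (−0.88 ± 0.10) and Dgat2 (−0.88 ± 0.20) had the smallest p-values, neither passing (adjusted p = 0.285 and 0.321).

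The clock list gave no call, with medians of −0.10, 0.04, −0.09 and −0.13 in brown, epididymal and inguinal fat and liver. Per3 in liver came nearest, at 8.76 and 8.73 with sunitinib and 9.25 and 9.13 with vehicle (−0.45 ± 0.08, adjusted p = 0.0792), next to Per2 at −0.28 ± 0.07. In brown fat Per3 differed by −0.40 ± 0.07 and Hlf by −0.41 ± 0.09, in epididymal fat Hlf by 0.35 ± 0.08 and Arntl by 0.19 ± 0.08, and in inguinal fat Bhlhe41 by −0.44 ± 0.16 and Cry2 by −0.32 ± 0.12. The glucocorticoid list gave no call, with medians of 0.02, 0.14, 0.02 and −0.08, of which that of inguinal fat changes sign with median centring. The metallothioneins Mt1 and Mt2 differed by 0.62 ± 0.07 and 0.64 ± 0.09 in brown fat (adjusted p = 0.228 for both). In epididymal fat Cebpd differed by 0.58 ± 0.12 and Dusp1 by −0.29 ± 0.08, in inguinal fat Pck1 by 0.94 ± 0.31 and Tsc22d3 by −0.38 ± 0.16, and in liver Mt2 by −0.56 ± 0.24 and Mt1 by −0.53 ± 0.23. At an unadjusted p under 0.05 the clock list held 4, 1, 0 and 3 genes, of 14, 15, 15 and 14 tested. The glucocorticoid list held 4, 5, 1 and 2, of 12 tested in each tissue.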

How the data were processed

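Total RNA was extracted with TRIzol and made into Illumina libraries, per the labels' protocols. Values are the authors' deposited regularized log2 (rlog) expression per gene and library, 1 table per tissue. The submitters' processing notes name bcl2fastq 2.17.1.14, TopHat2 2.1.1, bedtools, DESeq2 and the build mm9. How reads were counted, with which annotation and strand, is not given in the sources used here. Rlog values hold no read totals, so depth is unknown, no counting interval is given, and shrinkage understates changes of genes with few reads.

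Groups and replicate numbers follow the titles, which number the sunitinib livers 3 and 4, while the descriptions number them 1 and 2. Genes whose rlog averaged 3 or more in a tissue were fitted with limma 3.58.1 in R 4.3.3 (intensity trend, 2 residual degrees of freedom, two-sided), with Benjamini-Hochberg adjustment over 13044 genes in brown fat, 15526 in epididymal fat, 14916 in inguinal fat and 12394 in liver, and adjusted p below 0.05 counted as called. Tissue differences were interaction contrasts, and mean effects a contrast over 16 libraries. With 2 against 2 libraries an exact permutation test cannot go below 0.333, so none is given. The fits within tissues and the interaction fits were run on simulated data, and the mean effect was not. Simulated libraries were independent, so mice shared between tissues were not part of it. Alternatives changed the expression minimum, scaling, variance model, fit and libraries. Promoter sequences are from RefSeq (GRCm38.p6), and overlaps of genes from GENCODE on the same assembly, not the files' build.

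Named were the 9 genes and, per other list and tissue, each called gene or, with none, the 2 of smallest p, Nr1d1 beside Thra, and the 3 genes nearest to Thrsp and to Me1. Genes named beyond this rule (Crisp1 and the further list genes given as values) were chosen after their values were seen. The 9 genes and the lists were chosen with earlier results of these data known. A few list genes within this rule are not reported here.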

Additional observations from a re-analysis of the deposited data

Results flagged for a closer look

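The effect of sunitinib on Thrsp differed between liver and epididymal fat by a test of the difference itself, at −1.43 ± 0.19 for liver minus epididymal fat (limma adjusted p = 0.00548). Both sunitinib libraries were below both vehicle libraries in liver and above them in epididymal fat. Over the 8 settings that each left out 1 library the difference lay between −1.62 and −1.24, with adjusted p between 0.00287 and 0.0330.

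The effect on Gpd2 differed between brown and epididymal fat by the same kind of test, at −0.82 ± 0.15 for brown minus epididymal fat (limma adjusted p = 0.0333). The sunitinib pair was below the vehicle pair in brown fat and above it in epididymal fat. It kept its direction without any 1 library, between −0.97 and −0.66, but 5 of 8 such settings were no longer past the threshold. Neither the separate shrinkage of the tables nor the markers of other cell types in these depots was tested as a part of either difference.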

How the results depend on the processing

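Of the 9 genes, calls within a tissue numbered 1 instead of 0 in epididymal fat with a minimum mean of 5, quantile scaling, a robust fit or the replicate block, and 0 instead of 1 in liver with no intensity trend or 1 fit over the 4 tissues. All genes called were 4.54%, 2.15%, 3.76% and 4.37% in those epididymal settings, against 2.34%, and 0.0242% and 0% in those liver settings, against 0.194%. For brown minus epididymal fat they were 0 with no minimum, 4 with quantile scaling and 2 with a robust fit, against 1 (2.27%, 4.51% and 5.47% of all genes, against 3.64%). For the mean effect they were 2 with no minimum and 0 with quantile scaling, against 1 (6.39% and 7.66% of all genes, against 8.86%). The cause was not tested.

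Leaving out 1 library gave 0 to 2 calls in brown fat, 0 to 1 in epididymal fat, 0 to 2 in inguinal fat, 1 to 2 in liver, 0 to 3 for liver minus inguinal fat, 0 to 2 for brown minus epididymal fat, 0 to 1 for brown minus inguinal fat, 0 to 4 for epididymal minus inguinal fat and 0 to 2 for the mean effect. A left-out library leaves its group with 1, which is assumed to vary like the others. For brown minus epididymal fat, more of all genes passed without vehicle 1 of brown fat, where 2 members were called, than with every library. Fewer of all genes passed there without any other 1 library, where 0 or 1 member was called. The share of all genes called was 0% in brown and inguinal fat, 2.34% in epididymal fat and 0.194% in liver with every library, against 9.9% and 5.03% without vehicle 1 or 2 of brown fat, 6.32% and 7.22% without sunitinib 1 or 2 of epididymal fat, 27.5% and 4.91% without sunitinib 1 or 2 of inguinal fat and 3.66% without sunitinib 4 of liver. For epididymal minus inguinal fat 21.3% of all genes, and for brown minus inguinal fat 19% of all genes, passed without sunitinib 1 of inguinal fat. Calls gained this way within tissues were Me1 in brown fat without vehicle 1 (−0.69, adjusted p = 0.000405) or vehicle 2 (−0.73, 0.00158), Hr there without vehicle 1 (−0.49, 0.00139) and Gpd2 there without vehicle 2 (−0.48, 0.0368). Hr in inguinal fat passed without sunitinib 1 (−0.82, 0.00158) or 2 (−0.96, 0.00743), Klf9 there without sunitinib 1 (−0.66, 0.00450) and Thrsp there without sunitinib 2 (0.74, 0.0492). Thra passed in epididymal fat without sunitinib 2 (0.41, 0.0433) and in liver without sunitinib 4 (0.40, 0.00972), and Dio1 in epididymal fat without sunitinib 1 (0.57, 0.0215).

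Differences near 0 changed sign. With quantile scaling Dio2 (−0.0052) and Me1 (0.0556) did in epididymal fat, Thrb in inguinal fat (−0.0047, and −0.0250 with median centring) and the mean effect of Klf9 (0.0267). Without 1 library these ranged across 0: in brown fat Dio2 (−0.74 to 0.34), in epididymal fat Dio1 (−0.0145 to 0.57), Dio2 (−0.0879 to 0.18) and Me1 (−0.16 to 0.0574), in inguinal fat Thra (−0.19 to 0.33), Thrb (−0.25 to 0.27), Klf9 (−0.66 to 0.32) and Gpd2 (−0.24 to 0.15), in liver Thrb (−0.0854 to 0.0720), Dio1 (−0.18 to 0.11), Me1 (−0.29 to 0.0922) and Klf9 (−0.0538 to 0.23), in the mean effect Thrb (−0.12 to 0.0117), Thrsp (−0.0702 to 0.11), Klf9 (−0.12 to 0.12) and Gpd2 (−0.0203 to 0.0767). No scaling moved the median of all genes by 0.1. Medians of lists also ranged across 0 without 1 library. For transporters this held in all 4 tissues. It held for carriers in brown fat (−0.32 to 0.12) and inguinal fat (−0.083 to 0.20), and for co-regulators in brown fat and liver. Brown fat targets did so in inguinal fat (−0.24 to 0.043) and liver, and lipogenic and glucocorticoid genes in inguinal fat. The co-regulator median of epididymal fat was positive in each such setting.

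Same-numbered libraries deviated together in epididymal fat (correlation over genes 0.224) and inguinal fat (0.108) and against each other in brown fat (−0.256). With 2 pairs in each tissue, these values cannot show whether the numbers pair the libraries. With the replicate block, Thrsp in epididymal fat passed (0.69, adjusted p = 0.0355), and calls were 1 there and 0 in brown and inguinal fat. The crossed pairing in brown fat, chosen after seeing the data, also gave 0. No paired analysis was run in liver, where the titles share no number. The numbers of the descriptions, which do match there, were not used.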

Other observations

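Marker genes of the thyroid gland were read in the 4 tissues because the gland itself was not sampled. Thyroglobulin (Tg), the protein on which the hormone is made, was near the floor of the tables, at 2.24 and 2.22 in sunitinib libraries and 2.19 and 2.20 in vehicle libraries of epididymal fat. Pax8, a transcription factor of thyroid and other epithelia, had 7.96 and 7.81 in sunitinib libraries and 6.25 and 6.87 in vehicle libraries of epididymal fat, without overlap, beside the higher epithelial markers of those libraries, and the part of that tissue was not tested.

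Averaged over the 4 tissues, genes of the lists other than Me1 that passed included Insig1 (−0.53 ± 0.07, limma adjusted p = 0.00200), Dgat2 (−0.38 ± 0.05, adjusted p = 0.00246), Acly (−0.32 ± 0.07, adjusted p = 0.0221), Adrb3 (0.51 ± 0.13, adjusted p = 0.0389), Pnpla3 (−0.20 ± 0.05, adjusted p = 0.0467) and Rxrb (0.14 ± 0.04, adjusted p = 0.04998). Of all genes, 8.86% passed. Among other list genes read, Fasn (−0.16), Acaca (0.13), Acacb (0.14), Scd1 (−0.06), Ppargc1a (−0.08), Ucp1 (0.39) and Slc16a10 (−0.16) did not pass. Adrb3 differed by 1.24 in inguinal and 0.74 in epididymal fat, but by 0.04 in brown fat and 0.01 in liver. Whether these calls hold without 1 library is not reported here. Insig1 is a target of sterol-regulated transcription, Dgat2 makes triglyceride, and Rxrb encodes a retinoid X receptor. These values share libraries with the comparisons within tissues and add no separate support to them.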
